A study of Mus musculus with 25 samples.

Results

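The starts of long noncoding transcripts were examined by ATAC-seq, which marks open chromatin, in developing mouse retina, with RNA-seq of the same tissue beside it. The deposited table lists counts in 200 bp windows, 50 to a region, and each region spans 10 kb around an annotated transcript start on mm9. A region was a member when its transcript carried a RefSeq noncoding (NR) accession, when its symbol did not mark a small RNA (Mir, Snor, Scarna or Rn), and when its centre lay more than 1 kb from the centre of any protein-coding (NM) region. That gave 2281 members of 28329 regions, with 2172 symbols. The comparison classes were 23941 NM starts and 1278 small RNA starts. Another 675 noncoding starts fell within 1 kb of an NM start and were dropped; the farthest dropped was 992 bp away and the nearest kept was 1011 bp away. RefSeq typed 1709 members as long noncoding RNA (lncRNA), 309 as transcribed pseudogenes and 188 as genes that also make protein, so the NR accession alone does not make every member an lncRNA. The median member lay 43.0 kb from the closest NM start.

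The animals were CD1 mice, an outbred strain. ATAC-seq covered GFP+ cells, labelled as retinal progenitor cells, in 13 libraries. Embryonic day 10 (E10, given as day 10/11) has 1 library; the other embryonic days are E12.5, E14, E16.5 and E18, the postnatal days are P0 and P2, and each of these has 2. RNA-seq covered GFP+ cells and GFP- cells, the second labelled as post-mitotic retinal cells, in 2 libraries each at E14, E18 and P2. Which gene drives GFP is not in the labels, nor is the sex of the animals, nor whether replicates came from separate animals. The p-values therefore measure the spread between libraries, which may be technical.

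Long noncoding RNAs are transcripts without a long reading frame; some, such as Xist, act on chromatin, some, such as Malat1 and Neat1, build or fill nuclear bodies, and many have no known function. Like coding genes they start at promoters whose nucleosomes are displaced when the promoter is in use, which ATAC-seq reads as a peak at the start. In the retina, Six3os1, Miat, Tug1 and Sox2ot have been studied beside the progenitor and photoreceptor programmes. Promoters in mammals come in CpG-rich forms, typical of genes active in many tissues, and CpG-poor forms, which tend to be tissue-specific.

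The promoters shown here are those on which the results turn. They come from RefSeq on GRCm38.p6, run from 250 bases before to 50 bases after the RefSeq start, 5′ to 3′ on the transcript's strand, and were matched by gene, not by position, since the counts are on mm9. Capitals mark CpG dinucleotides. Snhg8 (chr3:123508287-123508586, minus strand, 30 CpG), Crnde (chr8:92356071-92356370, minus strand, 22 CpG) and Six3os1 (chr17:85618347-85618646, minus strand, 20 CpG) stand for open starts that changed less than 2-fold between P0 and E12.5.
Snhg8: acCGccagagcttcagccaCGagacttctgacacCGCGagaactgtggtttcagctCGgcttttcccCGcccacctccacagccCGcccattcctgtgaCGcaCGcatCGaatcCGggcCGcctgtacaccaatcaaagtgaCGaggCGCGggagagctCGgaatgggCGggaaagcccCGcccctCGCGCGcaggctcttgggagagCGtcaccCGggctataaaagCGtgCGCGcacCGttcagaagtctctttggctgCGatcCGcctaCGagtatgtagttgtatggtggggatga
Crnde: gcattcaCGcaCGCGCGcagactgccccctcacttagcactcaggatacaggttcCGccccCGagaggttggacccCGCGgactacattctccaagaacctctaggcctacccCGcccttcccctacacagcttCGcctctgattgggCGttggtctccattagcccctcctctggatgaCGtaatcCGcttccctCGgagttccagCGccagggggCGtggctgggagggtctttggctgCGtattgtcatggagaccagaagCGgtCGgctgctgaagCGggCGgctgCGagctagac
Six3os1: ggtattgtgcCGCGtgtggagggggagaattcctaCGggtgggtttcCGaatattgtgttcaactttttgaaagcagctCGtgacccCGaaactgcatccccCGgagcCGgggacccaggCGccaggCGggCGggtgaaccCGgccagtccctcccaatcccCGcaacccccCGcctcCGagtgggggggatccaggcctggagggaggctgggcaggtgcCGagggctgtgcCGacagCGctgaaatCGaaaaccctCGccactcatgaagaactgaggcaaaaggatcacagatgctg
1700096J18Rik (chr11:109346617-109346916, plus strand, 3 CpG), Ppp2r2cos (chr5:36876830-36877129, minus strand, 3 CpG) and A730036I17Rik (chr2:129218719-129219018, plus strand, 1 CpG) stand for starts that were higher late.
1700096J18Rik: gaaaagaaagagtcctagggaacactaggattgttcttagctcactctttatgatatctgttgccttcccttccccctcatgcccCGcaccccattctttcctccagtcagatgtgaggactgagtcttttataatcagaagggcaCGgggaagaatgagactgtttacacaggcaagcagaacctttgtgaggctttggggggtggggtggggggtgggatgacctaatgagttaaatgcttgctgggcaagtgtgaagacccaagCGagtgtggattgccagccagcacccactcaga
Ppp2r2cos: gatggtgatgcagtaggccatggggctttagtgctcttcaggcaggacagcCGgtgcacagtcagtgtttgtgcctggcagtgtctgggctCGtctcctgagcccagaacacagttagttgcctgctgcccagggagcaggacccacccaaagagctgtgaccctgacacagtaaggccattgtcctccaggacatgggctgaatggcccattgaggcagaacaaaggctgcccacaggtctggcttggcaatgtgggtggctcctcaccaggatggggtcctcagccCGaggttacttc
A730036I17Rik: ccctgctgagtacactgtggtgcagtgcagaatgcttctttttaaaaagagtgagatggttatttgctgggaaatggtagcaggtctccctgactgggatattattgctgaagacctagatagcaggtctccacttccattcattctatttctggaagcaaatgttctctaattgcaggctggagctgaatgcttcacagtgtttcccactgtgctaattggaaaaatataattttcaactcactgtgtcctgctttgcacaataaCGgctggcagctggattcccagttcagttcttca
2810471M01Rik (chr11:28681314-28681613, plus strand, 3 CpG) and 4933430M04Rik (chr11:24481659-24481958, plus strand, 1 CpG) stand for starts that were lower late.
2810471M01Rik: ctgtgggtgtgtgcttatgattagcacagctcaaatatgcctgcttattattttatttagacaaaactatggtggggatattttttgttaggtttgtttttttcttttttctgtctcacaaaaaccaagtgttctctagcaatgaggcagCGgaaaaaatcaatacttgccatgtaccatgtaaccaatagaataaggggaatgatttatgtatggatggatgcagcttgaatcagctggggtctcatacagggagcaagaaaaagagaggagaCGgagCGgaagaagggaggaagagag
4933430M04Rik: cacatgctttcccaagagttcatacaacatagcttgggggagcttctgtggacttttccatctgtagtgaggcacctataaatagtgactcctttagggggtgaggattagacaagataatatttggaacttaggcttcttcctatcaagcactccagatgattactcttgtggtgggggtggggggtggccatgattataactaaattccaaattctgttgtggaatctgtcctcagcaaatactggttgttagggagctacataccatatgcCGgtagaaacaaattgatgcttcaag
Each of the first 3 promoters holds 20 or more CpG, and each of the 5 promoters of changing starts holds 3 or fewer.

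Library facts bear on every value that follows. Total counts over the regions ran between 11176227 and 94662422 per ATAC library. The level at member starts over their flanks, a measure of signal over background, was 2.83 at E10, 6.16 to 6.57 at E12.5, 7.62 to 8.75 between E14 and E18, 9.45 and 9.59 at P0, 7.92 in P2 replicate 1 and 4.60 in P2 replicate 2. E10 and P2 replicate 1 hold no counts on unplaced sequence, unlike the other 11 libraries. In RNA, the 10 summed markers of post-mitotic retinal neurons lay at 102 to 306 FPKM in GFP+ libraries. They lay at 1021 to 4024 FPKM in 5 GFP- libraries and at 105.2 FPKM in E14 GFP- replicate 2. The sum of 8 retinal progenitor markers ran between 1523 and 2947 FPKM over the GFP+ libraries. It was lower in GFP- libraries at every stage but far from absent: 459 and 1144 at E14, 1162 and 1257 at E18, 1338 and 929 at P2. How much progenitor RNA in the GFP- libraries bears on the sort differences was not tested. The 6 lens markers summed to 76.8 FPKM in E14 GFP+ replicate 2 and 3241 FPKM in E14 GFP- replicate 2, where the other 10 libraries held at most 3.05 FPKM. E14 GFP- replicate 2, labelled as post-mitotic cells, also held 190.3 FPKM of 5 pigment epithelium markers. Results that rest on either library are given with and without it where the call moves. The erythroid markers, 4 of which are in the table, summed to 0.520 to 8.95 FPKM in GFP+ libraries. In GFP- libraries they summed to 1249.6 and 62.7 FPKM at E14, 75.6 and 48.7 at E18 and 14.5 and 18.0 at P2, so they were higher in GFP- cells at every stage. The 4 microglial markers summed to at most 3.58 FPKM in any library. The 4 endothelial markers summed to 23.2 to 233 FPKM in GFP+ libraries and 7.43 to 99.2 FPKM in GFP- libraries. The part of these cells in the RNA results was not tested.

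Most member starts were not open chromatin in these cells. A start was called open when its central 400 bp held, as a mean over libraries, at least 5 times the CPM per window of the typical flank (the median over all regions of the 6 outermost windows); this limit was set after the data were seen and is descriptive. By it 637 members (27.9%) were open, against 15496 NM starts (64.7%) and 220 small RNA starts (17.2%). Of the 675 noncoding starts dropped for lying within 1 kb of an NM start, 593 were open (87.9%). The low share therefore holds for members as defined here, not for all noncoding starts. The median of this ratio of start to typical flank was 1.55 for members and 28.0 for NM starts. Just inside the limit lay 1700028D13Rik at 5.04, and just outside lay Gm17751 at 4.998. Among RefSeq types, 450 of 1709 lncRNAs (26.3%), 36 of 309 transcribed pseudogenes (11.7%) and 129 of 188 protein-coding types (68.6%) were open. Openness also went with closeness to a coding gene: 111 of 242 members 1 to 5 kb from an NM start were open (45.9%), against 155 of 481 at 5 to 20 kb (32.2%), 258 of 915 at 20 to 100 kb (28.2%) and 113 of 643 beyond 100 kb (17.6%). Among the close members, those divergent from the coding gene on the opposite strand were open in 40 of 86 cases, other opposite-strand members in 41 of 83 and same-strand members in 30 of 73.

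The difference from NM starts was present in every library. The median member had a log2(CPM + 1) in the central 2 kb that was lower than that of the median NM start by a mean difference of -3.0003 ± 0.61 (SD, n = 13 libraries). The difference was lowest at -3.46 in E14 replicate 2 and highest at -1.34 in E10, the library with the least signal over background. Members were lower in 13 of 13 libraries, and a two-sided exact sign-flip permutation test over libraries gave p = 0.000244, the smallest it can give. The gap narrowed in the libraries with low start-over-flank values (-2.55 in P2 replicate 2, -2.69 and -2.50 at E12.5); the part of background in this was not tested. The 13 libraries are not independent of stage, so the p-value concerns these libraries.

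**Figure D1:**
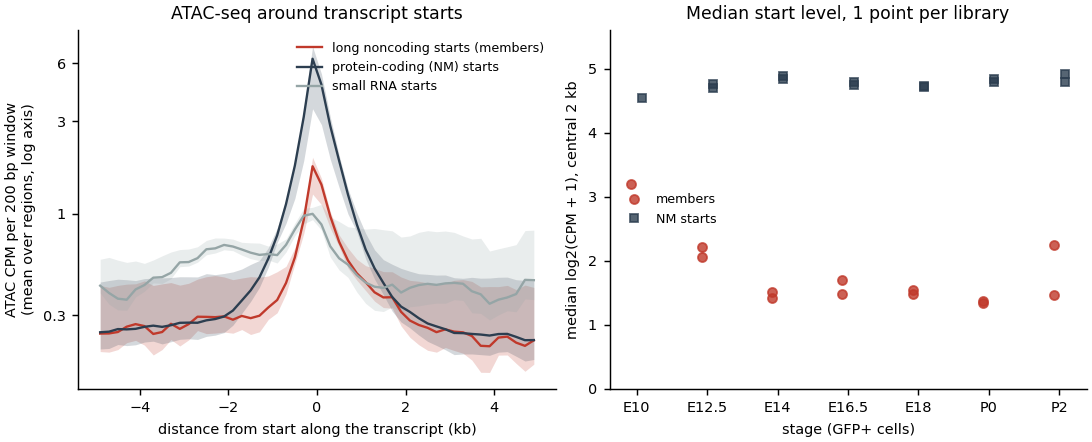
Left, mean ATAC CPM per 200 bp window (log axis) against distance from the start in kb for members, NM starts and small RNA starts; lines are means over libraries and bands span the lowest to the highest library. Right, median log2(CPM + 1) of the central 2 kb per library by stage; members run between 1.34 at P0 and 3.20 at E10, and NM starts between 4.54 and 4.91.

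The share of open starts was higher among members with more RNA. Of 2172 member symbols, 1308 were in the RNA table, of which 305 were at 0 FPKM in all 12 libraries. Among lncRNA-type symbols, 104 of 663 under a mean of 0.1 FPKM had an open start (15.7%), 93 of 187 at 0.1 to 1 FPKM (49.7%), 53 of 73 at 1 to 5 FPKM (72.6%) and 52 of 57 at 5 FPKM or more (91.2%). The Spearman correlation across these genes was 0.52 (n = 980 genes, which share libraries and are not independent replicates). Some transcripts fell outside that relation. Rian, a maternally expressed transcript of the imprinted Dlk1-Dio3 region, averaged 198 FPKM but had a start-to-flank ratio of 0.910, and Tug1, reported to be needed for photoreceptor development in rodents, averaged 47.2 FPKM with a ratio of 0.956. Gm16973 (16.2 FPKM, ratio 1.25) and 9130221H12Rik (6.41 FPKM, ratio 1.29) were alike. For these 4 the listed start on mm9 was not open; whether another start is used was not tested. In the other direction, 10 lncRNA symbols had a ratio of 50 or more and a mean under 0.1 FPKM.

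The most open member of all belonged to that second group. 4932412D23Rik, 32.1 kb from Zbtb20, a zinc-finger gene, at chr16:42870700-42880699 (mm9), has 2 listed starts that share most windows, and the first had a ratio of 426. Its central 2 kb held 269 CPM at E10, 462 and 482 at E12.5, 404 and 374 at E14, 534 and 521 at E16.5, 510.5 and 449.6 at E18, 398 and 444 at P0 and 324 and 213 at P2. Every one of these libraries placed it far above the median member, yet its RNA was at 0 FPKM in 9 of 12 libraries and reached at most 0.0167 FPKM. Both P0 libraries lay below both E12.5 libraries, but the difference did not pass the test. Its log2 fold change was -0.17 ± 0.20 (SE, adjusted p = 0.48 by edgeR's quasi-likelihood test). P2 lay below E14, at -0.53 ± 0.20 (adjusted p = 0.029 by the same test).

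Base composition followed openness. RefSeq promoters were found for 1355 member genes, of 22862 promoters in all. Members with a ratio of 20 or more had a median of 19 CpG in 300 bases (n = 231), those at 5 to 20 had 7 (n = 170) and those under 2 had 3 (n = 743). All promoters had a median of 7 and NM genes a median of 14. The median CpG count was also lower in open starts that changed at least 2-fold than in the other open starts. Open members that differed at least 2-fold between P0 and E12.5 had a median of 5 CpG (37 higher) or 6 CpG (41 lower). The median was 18 CpG for the 162 called with a smaller change and 12 CpG for the 161 not called. Between P2 and E14 the medians were 5 (39 higher) and 6 (17 lower), against 13 for the 115 with a smaller change and 15 for the 230 not called. The sets differ in start level as well as in CpG, and the medians were not tested.

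Short motifs were counted on both strands of the same promoters. CAGCTG, its own reverse complement and a form of the E-box that basic helix-loop-helix factors bind, was in 16.1% of all promoters, in 25.9% of members with a ratio of 5 to 20 and in 15 of the 39 open members at least 2-fold higher at P2 than at E14 (38.5%). Of the 17 that were at least 2-fold lower, 6 held it (35.3%). CAGATG, another E-box, was in 17.4% of all promoters, in 12 of those 39 (30.8%) and in 6 of those 17 (35.3%). TAATTA, a core bound by many homeodomain factors, was in 5.45% of all promoters and in 6 of the 37 open members at least 2-fold higher at P0 than at E12.5 (16.2%), against 3 of the 41 that were lower (7.32%). At P2 over E14 its shares were 10.3% of the 39 and 5.88% of the 17. TTGGCA, the NFI half-site, was in 14.5% of all promoters, in 23.1% of the 39 and 17.6% of the 17, and in 16.2% of the 37 and 14.6% of the 41. In the promoters printed above, A730036I17Rik and 2810471M01Rik hold CAGCTG, and 1700096J18Rik, 4933430M04Rik and Six3os1 hold CAGATG; Ppp2r2cos holds TTGGCA. Motif matches describe letters in a window; no share was tested.

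**Figure D2:**
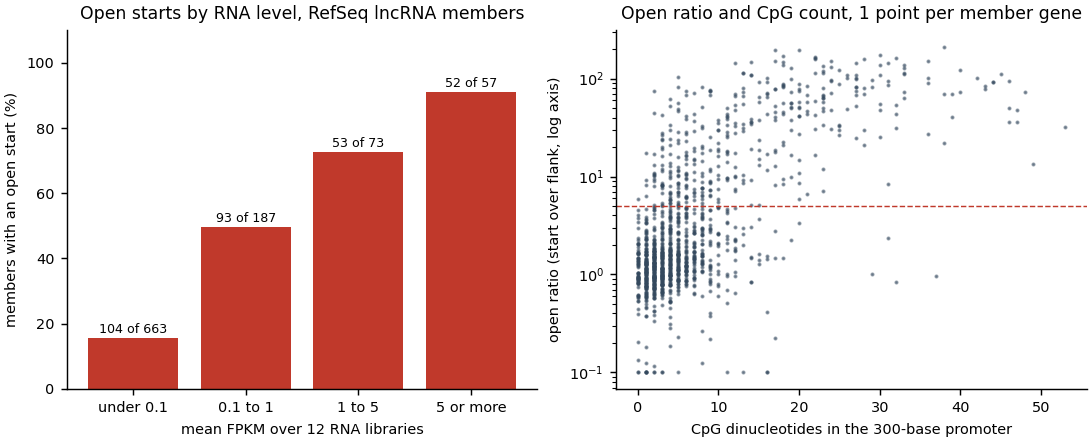
Left, percent of lncRNA-type members with an open start by mean FPKM over 12 RNA libraries, with counts above the bars; it runs between 15.7% and 91.2%. Right, start-over-flank ratio (log axis, values below 0.1 drawn at 0.1) against the number of CpG in the RefSeq promoter, 1 point per member gene; the dashed line is the limit of 5.

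Between P0 and E12.5, open member starts moved both ways. With edgeR's quasi-likelihood test on counts in the central 2 kb and an adjusted p under 0.05, 1026 of 2239 members tested were called (45.8%), against 51.5% of all regions. Of the 637 open members, 236 rose (37.0%) and 137 fell (21.5%); among open NM starts 43.0% rose and 14.0% fell, and among all regions 26.8% rose and 24.7% fell. At least 2-fold, 50 open members rose and 60 fell. Among members that were not open, 25 rose and 628 fell, and among NM starts that were not open 1.08% rose and 44.0% fell. The start-over-flank values of the libraries were higher at P0 (9.45 and 9.59) than at E12.5 (6.57 and 6.16), and their part in the result was not tested. With 1 background level per library subtracted, 180 open members rose (28.3%) and 178 fell (27.9%), beside 29.8% and 21.8% of open NM starts. Of the other members 32 rose (2.69%) and 141 fell (11.9%), beside 2.02% and 12.1% of NM starts that were not open. Of all regions 21.5% rose and 18.7% fell after subtraction. Leaving out 1 library at a time left 167 to 203 open members higher and 106 to 121 lower. Over all members the lower count of 765 shrank without any 1 of the E12.5 and P0 libraries, as did the lower count over all regions. An edgeR fit of a straight line in stage order over the 5 stages between E12.5 and P0 called 215 members rising and 660 falling (39.5%, against 45.3% of all regions), and shared 178 open members rising and 123 falling with the comparison of its ends.

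The rising starts were led by a group that was nearly closed up to E14 and opened from E16.5. Starts named for their change were picked from called members whose end-stage libraries did not overlap. At P0 over E12.5 that held for 1022 of 1026 called members, so the condition removed few. The share over all called regions was not counted, so this number describes the choice of starts and no trait of members. Gm16223, at chr5:42454199-42464198 and 224 kb from the nearest NM start, had 7.91 CPM at E10, 4.98 and 4.75 at E12.5, 2.13 and 2.04 at E14, 28.3 and 26.5 at E16.5, 45.04 and 42.3 at E18, 57.99 and 51.01 at P0 and 83.1 and 60.01 at P2. The lowest level was at E14. The log2 fold change was 3.49 ± 0.16 for P0 over E12.5 (SE, edgeR adjusted p = 2.2e-84) and 5.11 ± 0.16 for P2 over E14 (adjusted p = 4.6e-156). Its RNA reached at most 0.106 FPKM in any library.

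1700096J18Rik, at chr11:109203181-109213180, had 6.76 CPM at E10, 3.52 and 3.51 at E12.5, 1.74 and 1.56 at E14, 11.3 and 9.91 at E16.5, 17.5 and 17.6 at E18, 27.5 and 28.8 at P0 and 37.1 and 30.1 at P2. The log2 fold changes were 2.997 ± 0.20 (P0 over E12.5) and 4.35 ± 0.19 (P2 over E14). Ppp2r2cos, 8.31 kb from the start of Ppp2r2c, a regulatory subunit gene of protein phosphatase PP2A, had 13.8 CPM at E10, 4.82 and 4.21 at E12.5, 3.08 and 3.89 at E14, 17.9 and 14.6 at E16.5, 19.3 and 20.5 at E18, 31.3 and 30.3 at P0 and 33.9 and 32.1 at P2. It too was lowest at E14 and highest after birth, with log2 fold changes of 2.76 ± 0.18 and 3.24 ± 0.17. A730036I17Rik had 9.83 and 8.25 CPM at P0 against 1.42 and 2.43 at E12.5 (2.25 ± 0.34), and 13.9 and 22.8 at P2 against 1.13 and 1.36 at E14 (3.87 ± 0.33).

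Other starts rose from a higher or a similar early level. Gm19424, 3.10 kb from Slit1, which codes for a secreted axon guidance protein, had 90.8 and 89.02 CPM at P0 against 20.6 and 16.9 at E12.5, a log2 fold change of 2.259 ± 0.15. B930092H01Rik had 72.4 and 69.3 CPM at P0 against 16.5 and 13.1 at E12.5 (2.258 ± 0.15), with most of the step between E14 (21.8 and 23.5) and E16.5 (62.4 and 52.6). Both starts were picked under the same condition of no overlap. Gm4872 and Gm11961 were as low at E12.5 as the first group. Gm4872 has 2 listed starts within 1 kb that share reads; the first had 31.8 and 34.9 CPM at P0 against 4.94 and 2.38 at E12.5. Gm11961 had 15.99 and 16.6 CPM at P0 against 2.35 and 2.92 at E12.5 (2.64 ± 0.27).

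The falling starts were highest at E10 to E14 and low by E18. 2810471M01Rik, at chr11:28576564-28586563, had 11.6 CPM at E10, 15.5 and 18.4 at E12.5, 13.9 and 11.8 at E14, 3.52 and 4.97 at E16.5, 2.25 and 1.49 at E18, 1.31 and 0.559 at P0 and 1.84 and 2.32 at P2. The log2 fold change for P0 over E12.5 was -4.04 ± 0.37 (SE, edgeR adjusted p = 5.4e-25). 4933430M04Rik, 401 kb from Bcl11a, had 25.2 CPM at E10, 24.1 and 28.2 at E12.5, 36.2 and 36.5 at E14, 9.12 and 8.70 at E16.5, 6.18 and 5.18 at E18, 2.63 and 1.26 at P0 and 3.24 and 5.39 at P2. Its highest level was at E14 and the step lay between E14 and E16.5, with a log2 fold change of -3.62 ± 0.23 for P0 over E12.5 and -3.13 ± 0.18 for P2 over E14. Its ratio of start to flank was 2.81, below the limit for open. That ratio counts only the central 400 bp, as a mean over all libraries, while the CPM are of the central 2 kb.

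Other starts fell with the same timing. Gm839 had 2.21 and 2.46 CPM at P2 against 20.6 and 20.99 at E14 (-3.17 ± 0.27), Gm20187 had 1.78 and 2.79 against 12.6 and 13.7 (-2.56 ± 0.31) and D730050B12Rik had 2.01 and 6.001 against 16.6 and 15.6 (-2.07 ± 0.26). The last 2 lie 227.7 kb from Sox11 and 188.0 kb from Irx2, and their ratios of 2.97 and 3.18 were below the limit for open. 1600027J07Rik had 2.35 and 2.096 CPM at P0 against 15.3 and 16.9 at E12.5 (-2.83 ± 0.31). 2410021H03Rik, also below the limit at a ratio of 4.43, had 2.77 and 1.96 against 12.1 and 12.7 (-2.34 ± 0.30). RNA of 4 of these falling starts was low: the mean was 0.118 FPKM for 2810471M01Rik, 0.0320 for Gm839 and 0.301 for 2410021H03Rik, and 4933430M04Rik was at 0 FPKM in all 12 libraries. D930028M14Rik, by contrast, had measurable RNA. The first of its 2 listed starts had 4.22 and 3.63 CPM at P0 against 19.4 and 16.3 at E12.5 (-2.16 ± 0.23), and its RNA had 0 and 0.0684 FPKM in GFP+ cells at P2 against 4.58 and 17.4 FPKM in GFP+ cells at E14. The RNA groups did not overlap, but the limma fit missed the threshold (-3.29 ± 0.85, adjusted p = 0.122); the highest value, 85.01 FPKM, was in E14 GFP- replicate 1.

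**Figure D3:**
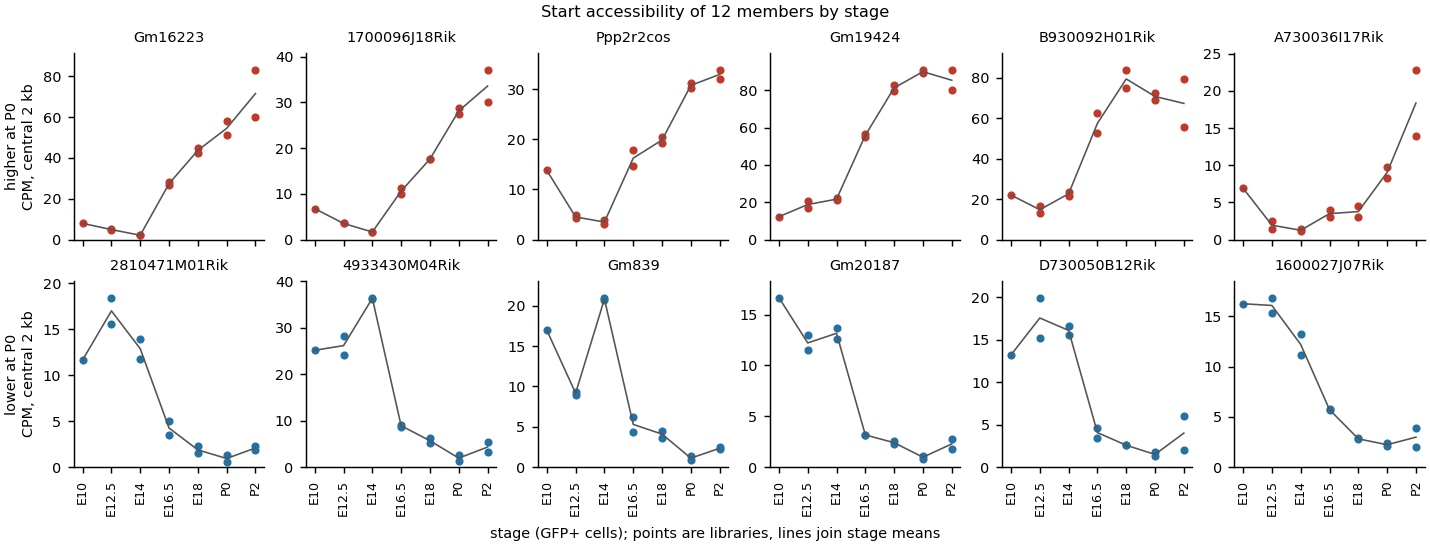
CPM in the central 2 kb by stage for 6 starts that were higher (top) and 6 that were lower (bottom) at P0 than at E12.5; points are libraries, lines join stage means and each panel has its own axis starting at 0. Top panels run up from E16.5 and bottom panels run down from E16.5; the starts were chosen for these changes.

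Between P2 and E14, open starts again split. Of 2239 members, 524 were called (23.4%, against 27.6% of all regions). Among open members 133 rose (20.9%) and 126 fell (19.8%), where all regions had 11.9% rising and 15.7% falling and open NM starts had 10.3% and 25.1%. At least 2-fold, 56 open members rose and 24 fell. Among members that were not open, 234 rose (14.6%) and 31 fell (1.94%), where NM starts that were not open had 14.2% and 1.23%. Start-over-flank values were 7.92 and 4.60 at P2 and 8.11 and 8.37 at E14. With background subtracted, members that were not open gave 97 higher and 57 lower, and open members gave 163 and 108. These counts rest on single libraries. Without P2 replicate 1, 162 open members rose and 238 fell; without P2 replicate 2, 147 and 126; without E14 replicate 1, 87 and 67; and without E14 replicate 2, 88 and 77. Over all members, as over all regions, the counts higher and lower were both largest without P2 replicate 1.

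Rising starts at P2 included several with a low level until E16.5. 9330188P03Rik had 32.4 and 37.2 CPM at P2 against 1.74 and 1.39 at E14 (4.47 ± 0.21), though its direction for P0 over E12.5 turned, to -1.93, when only the central 400 bp were counted. 5830416I19Rik had 31.9 and 27.2 against 3.21 and 3.58 (3.12 ± 0.18) and Lncppara, near Ppara, had 12.7 and 18.6 against 1.77 and 1.303 (3.34 ± 0.31). The ratios of 9330188P03Rik, 5830416I19Rik and Lncppara were 2.56, 4.24 and 2.39, below the limit for open. Trp53cor1, known as lincRNA-p21 and induced by p53, had 21.1 and 15.3 CPM at P2 against 4.26 and 4.55 at E14, with a log2 fold change of 2.05 ± 0.22 (edgeR adjusted p = 4.3e-18). Its libraries did not overlap, while its RNA averaged 0.163 FPKM.

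Hosts of small nucleolar RNAs, whose introns release guides for ribosomal RNA modification, were among the most open members. Of 13 listed starts, from 12 symbols, 12 were open, with a median ratio of 45.5. The 2 listed starts of Snhg17 share nearly all reads and are counted separately here. At P0 over E12.5, 10 rose and 1 fell, with a median log2 fold change of 0.47, beside 37.0% and 21.5% of open members. At P2 over E14, 2 rose and 4 fell, with a median of -0.22, beside 20.9% and 19.8% of open members. Snhg8 was the highest, with 149 and 169 CPM at P0 against 140.3 and 132 at E12.5, and did not pass the test (0.22 ± 0.17). Dancr rose (0.63 ± 0.16), as did Snhg17 (0.79 ± 0.14 at its first listed start), Snhg7 (0.77 ± 0.15) and Snhg6 (0.62 ± 0.15). The one that fell was Snhg14, the long imprinted host transcript of the Prader-Willi and Angelman region, with 1.04 and 1.40 CPM at P0 against 11.4 and 12.2 at E12.5 (-3.31 ± 0.45, edgeR adjusted p = 1.6e-11). The listed start of Snhg14 is 279 kb from Snrpn, the nearest NM start, and had a ratio of 4.55. None of the 8 hosts tested in RNA was called in any of the 4 RNA comparisons by limma; Snhg5 averaged 115 FPKM, Snhg12 56.8 and Snhg8 47.4.

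Nuclear and widely expressed lncRNAs were open at 15 of 19 listed starts, from 16 symbols. At P0 over E12.5, 8 rose and 2 fell, against 3 and 1 at P2 over E14. The 2 listed starts of Neat1 share nearly all reads and those of Pvt1 overlap in part, and each start is counted separately. Dleu2, the host of the miR-15a and miR-16-1 cluster, had 149 and 152 CPM at P0 against 73.1 and 77.9 at E12.5 (0.99 ± 0.17) and rose again at P2 over E14 (0.52 ± 0.16). Crnde, 1.68 kb from the homeobox gene Irx5, had 149 and 144 CPM at P0 against 79.6 and 81.9 at E12.5 (0.86 ± 0.17). At that distance its central 2 kb overlaps that of Irx5 and shares reads. Both falling starts belonged to Pvt1, the neighbour of Myc, with log2 fold changes of -1.06 ± 0.23 and -0.50 ± 0.14. Neat1, the scaffold of paraspeckles, did not pass (0.14 ± 0.14), and Malat1, a transcript of nuclear speckles, had 55.9 and 50.6 CPM at P0 against 40.3 and 40.02 at E12.5 (0.41 ± 0.15), against -0.12 in the central 400 bp. The Malat1 call was lost without either E12.5 library or without P0 replicate 1. Terc, the RNA template of telomerase, rose by 0.84 ± 0.14, as did 1700020I14Rik, known as Cyrano (0.82 ± 0.14).

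Of the 4 X-inactivation transcripts, 3 were open and the same 3 rose at P0 over E12.5. Xist, the RNA that coats the inactive X chromosome, had 8.30 and 12.9 CPM at P0 against 2.47 and 2.54 at E12.5 (2.05 ± 0.30, edgeR adjusted p = 2.6e-10). Libraries between E14 and P0 held 7.78 to 12.9 CPM, while P2 held 7.46 and 2.55 CPM. At P2 over E14 Xist fell (-0.81 ± 0.26), mostly through P2 replicate 2; without that library the value was -0.283 (adjusted p = 0.379), and the call was also lost without either E14 library. Jpx, an activator of Xist, had 59.9 and 66.5 CPM at P0 against 38.8 and 36.7 at E12.5 (0.74 ± 0.14), and Ftx rose by 0.45 ± 0.19. Jpx fell at P2 over E14 (-0.35 ± 0.14), but without P2 replicate 2 the value was 5.215e-05. Tsix, the antisense repressor of Xist, had a ratio of 0.828 and did not pass (-1.60 ± 0.88). Xist is made only in cells with more than one X, and the sex of the animals is not known here.

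Imprinted transcripts were open at 6 of 11 listed starts; 1 rose and 3 fell at P0 over E12.5, and none rose and 2 fell at P2 over E14. Kcnq1ot1, the paternal antisense RNA of the Kcnq1 domain, rose by 0.50 ± 0.14. H19, the maternal transcript next to Igf2, had 6.57 and 6.43 CPM at P0 against 10.3 and 12.2 at E12.5 (-0.78 ± 0.23), and Nctc1 and Snhg14 also fell. The H19 call was lost without E12.5 replicate 2. Nespas, the antisense RNA of the Gnas cluster, had 41.1 and 33.8 CPM at P2 against 61.2 and 65.3 at E14 (-0.75 ± 0.14). Airn, Peg13 and Meg3 did not pass in either comparison, with P0 over E12.5 at -0.17 ± 0.15, 0.07 ± 0.14 and 0.07 ± 0.20 (the second listed start of Meg3).

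LncRNAs next to homeobox, Sox and other developmental genes were open at 16 of 24 listed starts, and 10 rose and 2 fell at P0 over E12.5, against 5 and 1 at P2 over E14. C130071C03Rik, the host of miR-9-2, a microRNA of neural progenitors, had 53.6 and 63.03 CPM at P0 against 21.2 and 17.5 at E12.5 (1.58 ± 0.15, edgeR adjusted p = 4.7e-24) and 60.3 and 46.2 at P2 against 34.8 and 31.7 at E14 (0.69 ± 0.13). Pax6os1, antisense to the eye regulator Pax6, rose by 1.06 ± 0.14, Sox1ot by 0.92 ± 0.15 and 2610307P16Rik near Sox4 by 0.85 ± 0.14. Pantr1 near Pou3f3 rose by 0.81 ± 0.14 and Otx2os1 by 0.69 ± 0.19. Pax6os1 lies 1.43 kb from Pax6 and Otx2os1 1.64 kb from Otx2, so the central 2 kb of each pair overlap and share reads. Sox2ot, which overlaps Sox2, fell by 0.45 on the log2 scale, with 12.4 and 10.6 CPM at P0 against 15.96 and 15.8 at E12.5; D930028M14Rik was the other that fell. The Sox2ot call was lost without either E12.5 library or without P0 replicate 2. Hotair and Hoxb5os, from Hox clusters, had ratios of 2.03 and 2.15 and were at 0 FPKM in all RNA libraries. Of the 10 starts of retina lncRNAs from earlier studies, which overlap the lists above, 5 rose and 1 fell at P0 over E12.5, and 1 rose and 0 fell at P2 over E14 by edgeR; Miat had 45.9 and 45.98 CPM at P0 against 20.6 and 20.6 at E12.5 (1.16 ± 0.14) and Six3os1 had 56.1 and 57.996 against 44.8 and 34.9 (0.51 ± 0.14). Beside the counts of all these lists, from the snoRNA hosts on, stand the shares at P0 over E12.5. Of all regions 26.8% rose and 24.7% fell, and of open members 37.0% rose and 21.5% fell. At P2 over E14, 11.9% of all regions rose and 15.7% fell, and 20.9% of open members rose and 19.8% fell. The lists were not tested as sets.

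Of all members, 9 held no count in either P0 library and at least 10 in each E12.5 library. Gm9833, a transcribed pseudogene, had counts of 51 at E10 and 182 and 216 at E12.5, 3 in E18 replicate 1 and 0 in the other 9 libraries. Against a floor of 3 counts over both P0 libraries it was at least 67.6-fold lower at P0 than at E12.5. Its RNA, in contrast, was even, at 10.0 to 16.1 FPKM in all 12 libraries. Gm5478, another pseudogene, was at least 13.8-fold lower, and Slc17a1 at least 11.9-fold lower, but both held counts again at P2 (24 and 52 for Gm5478, 41 and 50 for Slc17a1). P0 replicate 2 is the shallowest library, with 11176227 counts. Reads of a pseudogene can be shared with its parent gene, so Gm9833 and Gm5478 are uncertain.

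Calls of open members were set beside those of the nearest NM start. Of 50 open members 1 to 5 kb from an NM start that rose at P0 over E12.5, the nearest NM start rose in 34 cases, fell in 1 and was not called in 15. For the 21 that fell these counts were 7 fell, 2 rose and 12 were not called. At 5 to 50 kb, 121 open members rose, and the nearest NM start rose with 60 of them and fell with 14. Over 50 kb away, 64 open members rose, and the nearest NM start rose with 33 of them and fell with 7. At P2 over E14, 21 open members 1 to 5 kb away rose, with the NM start rising in 10 and falling in none, while of 44 that rose over 50 kb away the NM start rose in 3 and fell in 8. Of the 111 open members 1 to 5 kb from an NM start, 57 lay within 2 kb, where the central windows of the pair overlap and share reads. Of all NM starts, 28.8% rose and 24.2% fell at P0 over E12.5, and 11.6% rose and 17% fell at P2 over E14. The counts were not tested.

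RNA of members was compared between sorted cells by limma on log2(FPKM + 1), over 14276 genes that reached 1 FPKM in at least 2 libraries; 368 member symbols were among them, 187 of lncRNA type. Bulk RNA cannot tell fewer cells of a type apart from less RNA per cell. At E14, 0 members were called, as were 0 of all genes (0%). At an unadjusted limma p under 0.05, 25 members were higher and 31 lower in GFP+ cells. Of all 14276 genes, 1296 were higher and 950 lower at that limit. Without E14 GFP- replicate 2, the library that goes against its label, 52 members were higher and 100 lower, beside 3380 and 3490 of all 14276 genes. That fit rests on E14 GFP- replicate 1 alone, which holds 1249.6 FPKM of erythroid markers and is assumed to vary like the other groups. Calls also appeared without E14 GFP+ replicate 2, among members as over all genes.

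At E18, 24 members were called (6.52%, against 3.61% of all genes), 4 higher and 20 lower in GFP+ cells, where 1.13% of all genes were higher and 2.49% lower; 14 of the 20 were lncRNAs. A930011G23Rik had 0.648 and 0.928 FPKM in GFP+ cells at E18, against 32.6 and 28.1 FPKM in GFP- cells. The groups were far apart, with a log2 difference of -4.13 ± 0.72 (SE, limma adjusted p = 0.0291). At P2 it had 0.192 and 0.121 FPKM in GFP+ cells and 11.3 and 5.85 in GFP- cells, also without overlap, though this missed the threshold (adjusted p = 0.0947). Its start in GFP+ cells held 35.5 CPM at E10 and 58.2 and 64.1 CPM at P0.

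E130218I03Rik showed the same order, with 11.5 and 13.8 FPKM in GFP+ cells against 60.4 and 78.9 in GFP- cells at E18 (-2.36 ± 0.43, limma adjusted p = 0.0337). 6530402F18Rik had 3.14 and 3.07 FPKM against 19.3 and 21.1 (-2.36 ± 0.51), and Sox2ot had 5.67 and 7.37 against 23.9 and 28.8 (-1.87 ± 0.36). Groups did not overlap for these 3. The 4 higher in GFP+ cells were 1810044D09Rik, with 5.15 and 6.44 FPKM against 1.34 and 2.16 (1.32 ± 0.23), 2700046A07Rik (1.15 ± 0.25), Gm10433 (0.81 ± 0.17) and the histone pseudogene Hist1h2al (1.77 ± 0.26). Among members that also make protein, Pde6g, which codes for the inhibitory subunit of rod phosphodiesterase, had 0.444 and 0.667 FPKM against 10.9 and 13.7, and Zfp57, a zinc-finger protein that maintains imprints, had 7.18 and 8.93 against 43.5 and 50.1. The E18 calls rest on having both libraries: without E18 GFP+ replicate 1, 1 member was higher and 1 lower; without GFP+ replicate 2, 0 and 1; without GFP- replicate 1, 0 and 1; and without GFP- replicate 2, 1 and 1. Over all genes the same fits left 23 to 34 calls of 516.

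At P2, 8 members were lower in GFP+ cells and 0 higher (2.17%, against 1.49% of all genes, 0.112% higher and 1.37% lower). At an unadjusted limma p under 0.05, 15 of 368 members were higher and 58 lower. Of all 14276 genes, 850 were higher and 1388 lower at that limit. Pantr1 had 0.140 and 0.0863 FPKM in GFP+ cells at P2, against 6.35 and 5.31 FPKM in GFP- cells. The groups did not overlap (-2.61 ± 0.36, limma adjusted p = 0.0158). Its start in GFP+ cells at P2 held 43.3 and 43.8 CPM. Pde6g had 3.96 and 2.19 FPKM against 52.4 and 118 and Crxos, on the strand opposite the photoreceptor regulator Crx, had 0.474 and 0.826 against 4.21 and 6.72 (-1.95 ± 0.31). BC046251 had 0.0444 and 0.120 against 3.31 and 1.76 (-1.67 ± 0.30) and was lower in GFP+ cells at E18 too (-1.74 ± 0.30). Counting is not stated to use strand, so Crxos and Crx cannot be told apart where they overlap. Leaving out any 1 P2 library gave fewer calls, among members as over all genes.

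In GFP+ cells, P2 against E14, 8 members rose and 3 fell (2.99%, against 1.15% of all genes, 0.932% higher and 0.217% lower); 6 of the 8 were lncRNAs. 9430041J12Rik, 1.20 kb from Ttyh1, had 5.30 and 3.74 FPKM at P2 against 0.297 and 0.0546 at E14. The libraries did not overlap (2.23 ± 0.22, limma adjusted p = 0.00511). Gm11266, 2.21 kb from Nfib, a transcription factor gene of late retinal progenitors, had 5.998 and 2.51 FPKM at P2 against 0.109 and 0.0763 at E14 (2.18 ± 0.34). A730036I17Rik had 2.35 and 1.29 against 0.164 and 0 (1.36 ± 0.24), and Sox2ot had 24.2 and 19.3 against 6.88 and 2.79 (2.05 ± 0.36). These calls shift with single libraries. More members were called without E14 GFP+ replicate 1 and fewer without any other library of this comparison, and the same held over all genes.

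The start counts of these RNA-called members come from other libraries of the same stages. Of the 8 whose RNA rose, the start rose in 5, fell in 1 and was not called in 2. 9430041J12Rik had 58.5 and 61.99 CPM at P2 against 17.6 and 16.1 at E14 (1.84 ± 0.13, edgeR adjusted p = 9.8e-38). The rise was already under way at P0 (46.4 and 44.999 CPM). This start lies 1.20 kb from that of Ttyh1, so their central 2 kb overlap and share reads, and the 2 cannot be told apart there. Gm11266 rose by 0.62 ± 0.14, 2700046A07Rik by 2.27 ± 0.18 and A730036I17Rik by 3.87 ± 0.33; Samd7, a photoreceptor gene whose ratio was 2.32, rose by 2.09 ± 0.59. 4930481A15Rik and Sox2ot did not pass (0.36 ± 0.16 and 0.38 ± 0.15), and Adhfe1 fell (-0.43 ± 0.18). Of the 3 whose RNA fell, Slc6a17 had a start that rose (1.49 ± 0.52, ratio 0.985) and Thbs3 and A730017C20Rik did not pass.

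**Figure D4:**
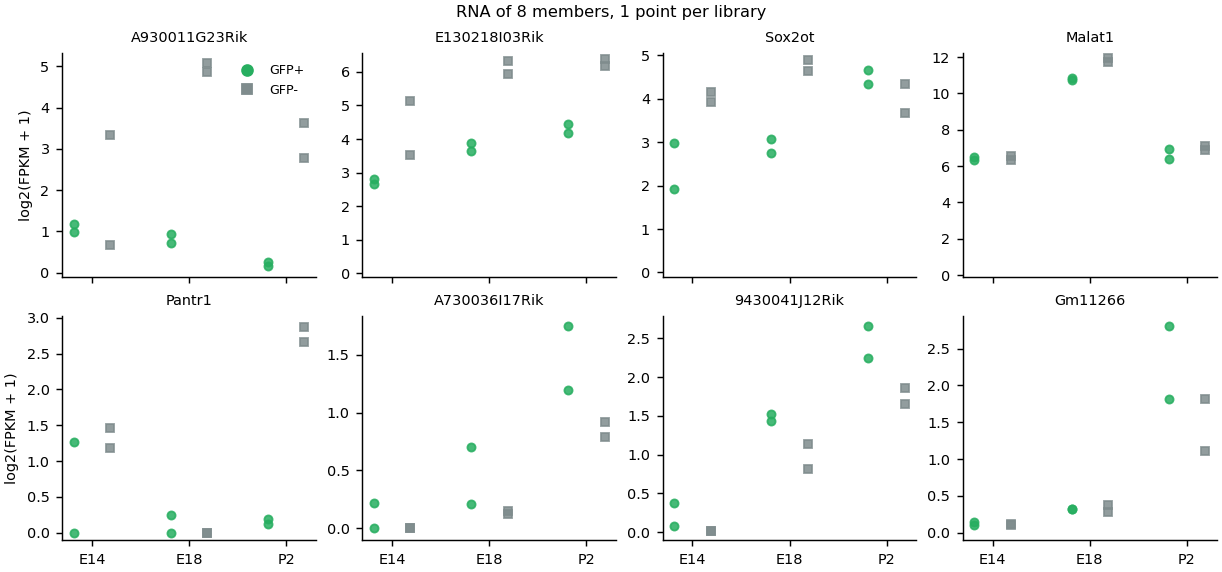
Log2(FPKM + 1) of 8 members in GFP+ (green circles, left) and GFP- (grey squares, right) cells at E14, E18 and P2, 1 point per library; each panel has its own axis. A930011G23Rik and E130218I03Rik lie lower in GFP+ cells at E18, Malat1 stands high in all 4 E18 libraries, and the last 3 panels lie higher in GFP+ cells at P2 than at E14.

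Several well-known lncRNAs stood apart in the E18 libraries as a set. Malat1 had 1869 and 1706 FPKM in GFP+ cells at E18 and 3935 and 3414 in GFP- cells, against 79.9 to 134.9 FPKM in the other 8 libraries. All 4 E18 libraries lay above all 8 others for 34 of 187 lncRNA members tested (18.2%) and 44 of 368 members (12%), against 955 of 14276 genes (6.69%). Snhg4 (69.5 to 151 FPKM at E18, at most 14.98 elsewhere), Dleu2, Kcnq1ot1 and Nespas did the same. Others went the opposite way, with all 4 E18 libraries below all 8 others. These were 7 of 187 lncRNA members (3.74%) and 17 of 368 members (4.62%), against 937 of 14276 genes (6.56%). Xist (26.0 to 39.98 FPKM at E18, at least 40.2 elsewhere) and Firre (9.75 to 15.2 at E18, at least 22.2 elsewhere) were among them. The Malat1 start had 65.7 and 71.998 CPM at E18, against 45.5 and 55.7 at E16.5 and 55.9 and 50.6 at P0. The labels call all RNA libraries polyA and name a total RNA kit; stage and any difference in preparation cannot be told apart at E18. H19, by contrast, was high in both E14 replicate 2 libraries, the ones with lens markers, at 535 FPKM in GFP+ cells and 1189 FPKM in GFP- cells, where the other 10 libraries held 30.1 to 121 FPKM; the part of other tissue in this was not tested.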

How the data were processed

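Counts of reads per 200 bp window around transcript starts were deposited by the authors, with mm9 coordinates; 1 table of RNA values was deposited by the authors without a named unit, and its values, which are not whole, were taken as FPKM. Per the submitters' processing notes, Bowtie2, HISAT2, Picard 2.10.7, SAMtools 1.5, featureCounts 1.5.3 and bedtools 2.26.0 were used, with mm9 and mm10 as genome builds; which step used which, and whether reads were shifted for the transposase or duplicates removed, is not given in the sources used here. Replicates were not pooled. Read counts are not independent molecules, so precision from depth covers counting error only.

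The central 2 kb (10 windows) of each region was summed. edgeR 4.0.16 (TMM factors, filterByExpr, quasi-likelihood test) was fitted on all 28329 regions and 13 libraries with stage as the factor (6 residual degrees of freedom), and over 10 libraries and 5 stages for the trend. Printed CPM are TMM-normalized over the central 2 kb. limma 3.58.1 (trend) was fitted on log2(FPKM + 1) of 12 libraries, so RNA fold changes understate low genes. P-values were adjusted by Benjamini-Hochberg over all regions or genes, with a threshold of 0.05. The ratio behind the open call divides the mean CPM per window of the central 400 bp by the median CPM of the 6 outermost windows over all regions. Members were matched to RefSeq types by transcript, which found 2240 of 2281, to promoters by gene ID and to RNA values by symbol. Background subtraction took 1 level per library, that median scaled to 2 kb, off the counts. DESeq2 1.42.0, other windows, scalings and filters, and fits without each library were alternatives. The scripts were tested on simulated data. The members and the gene lists were chosen with earlier results of these data known. Named were all members of the lists, the 8 most changed each way among called members per ATAC comparison (the trend included) whose end stages did not overlap and whose mean count was at least 20, the 6 most changed each way among called members per RNA comparison at 5 FPKM or more in the higher group, the 10 highest by start CPM and by FPKM, and members called in both assays; of these the text gives a part. Members low in RNA, at 0 at P0 or at the open limit were named after their values were seen. A second deposited count table, over exons of whole genes, was not used.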

Additional observations from a re-analysis of the deposited data

Results flagged for a closer look

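Hist1h2al, a transcribed histone pseudogene, differed between sorted cells in opposite directions at P2 and E18, and the difference between the stages was itself past the threshold. It had 6.38 and 5.10 FPKM in GFP+ cells and 20.5 and 23.5 in GFP- cells at P2. At E18 it had 2165 and 3579 FPKM in GFP+ cells and 731 and 913 in GFP- cells. The sort difference at P2 minus that at E18 was -3.54 ± 0.37 on the log2(FPKM + 1) scale (SE, limma adjusted p = 0.0267). It was the 1 member of 368 called in this test, which called 14 of 14276 genes (0.0981%). Its level was far higher in all 4 E18 libraries than in the other 8, as for Malat1, and reads of histone genes with near-identical sequence may be split among copies, so the value is uncertain. Its start in GFP+ cells held 10.5 to 17.3 CPM in all 13 ATAC libraries.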

How the results depend on the processing

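The difference in start level between members and NM starts was -3.428 to -1.60 under the alternatives run and -3.14 to -2.96 with each library left out. ATAC counts moved by more than 1.5 times in these cases. In the central 400 bp, 458 members fell at P0 over E12.5, 234 rose at P2 over E14 and 419 fell in the trend. With background subtracted, 319 fell at P0 and 362 in the trend. Without E10 and P2 replicate 1, 1070 members rose and 288 fell at P2 over E14, with 253 open members falling. The trend over all 13 libraries called 116 rising and 189 falling, of which 105 and 58 were open. With 1 library left out, members higher and lower ranged over 186 to 224 and 407 to 556 (P0 over E12.5; open 167 to 203 and 106 to 121), 148 to 1092 and 85 to 271 (P2 over E14; open 87 to 162 and 67 to 238), and 148 to 243 and 330 to 810 (trend; open 130 to 217 and 95 to 134).

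RNA calls were fewer and moved more. At E18 the counts higher and lower were 1 and 4 with a pseudocount of 0.1, 9 and 56 without a filter, 74 and 130 in a fit of the 4 libraries alone, and 14 higher with quantile normalization; leaving out 1 library gave 0 to 1 and 1. At P2, 4 fell with a pseudocount of 0.1, 5 with quantile normalization and 4 among lncRNA types, and 18 rose and 57 fell in a fit of 4 libraries; leaving out 1 gave 0 to 5 lower. For GFP+ P2 over E14, 5 rose with a pseudocount of 0.1, 1 fell without a filter, 0 and 0 were called in a fit of 4 libraries, 1 fell among symbols without an NM region and 0 among lncRNA types; leaving out 1 gave 0 to 14 and 0 to 5. At E14 leaving out 1 gave 0 to 52 and 0 to 100.

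Same-numbered replicates did not deviate together at every pair of groups, so the numbers were not taken as pairs. With the replicate number as a block, RNA counts became 2 higher and 8 lower at E18 and 2 higher for P2 over E14, while ATAC counts stayed within 1.5 times (262 and 765 at P0 over E12.5). Deviations of E14 and P2 ATAC libraries correlated at -0.26 and those of the P2 RNA sort at -0.56; pairing the numbers crosswise gave 314 higher and 148 lower, and 0 higher and 8 lower. Directions that turned among named members were Malat1 (-0.12 in the central 400 bp at P0), 9330188P03Rik (-1.927 there, and -0.3381 in the trend), Adhfe1 (0.24 at P0 and 0.04854 in the trend over the whole 10 kb), Jpx (5.215e-05 at P2 over E14 without P2 replicate 2, and -0.8609 without P2 replicate 1) and the second start of D930028M14Rik (0.03284 in the trend, central 400 bp). The causes were not tested.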

Other observations

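Among the members with the highest start levels were Gm44505 and Gm13375, 2.49 and 1.15 kb from NM starts. Gm44505 had 206 and 210.0 CPM at P0 against 189 and 198 at E12.5, and did not pass the test (0.11 ± 0.18, edgeR adjusted p = 0.62). Gm13375 had 188 and 209 CPM at P0 against 176 and 173 at E12.5 (0.19 ± 0.18). The central 2 kb of Gm13375 overlaps that of its nearest NM start and shares reads. 1810026B05Rik rose slightly, with 176 and 176 CPM at P0 against 125 and 125 at E12.5 (0.49 ± 0.17, edgeR adjusted p = 0.012). On chromosome X, 30 of 89 member starts were open (33.7%), against 27.9% of all members; this share was not tested.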
